A study of Mus musculus with 6 samples.

Results

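The genes that shorten the poly(A) tail, remove the cap and degrade the body of messenger RNAs were followed in whole lenses of newborn mice. Celf1 was deleted in the lens lineage of the knockout mice. The paper reports that part of their Celf1 transcripts kept the exon targeted for deletion. A list of 55 mouse genes was matched by gene symbol to the table of log2 CPM values (read counts scaled to library size, on a log2 scale) of the 6 RNA-sequencing libraries, and all 55 were among its 13931 genes. The genes were picked by function. Lenses were collected at postnatal day 0 and pooled by 2, with 1 pool behind each of the 3 libraries of Control and the 3 of Celf1cKO. Celf1cKO mice carried a germline knockout allele, Celf1lacZKI, a Celf1flox allele with loxP sites around an exon, and Pax6GFPCre, a transgene that starts Cre expression in the lens placode and is also active in the pancreatic lineage. The Control genotype is labelled Celf1lacZKI/+, which carries the same germline allele, while according to the study's methods controls were, unless stated otherwise, Celf1flox animals that lacked Cre. That difference was not settled and bears on every comparison below. The mice were of a mixed C57BL/6 and FVB background.

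Most messenger RNAs are degraded in steps. Deadenylases of the CCR4-NOT and PAN2-PAN3 complexes shorten the poly(A) tail, the decapping enzyme then removes the cap, and the body is degraded from the 5′ end by XRN1 or from the 3′ end by the RNA exosome. CELF1 is an RNA-binding protein known to bind GU-rich elements in 3′ UTRs and to promote deadenylation of the bound transcripts. In fiber cells, which make up most of the lens and lose their nuclei as they mature, crystallin proteins are made from long-lived messenger RNAs.

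Between 40694454 and 44387151 reads per library were counted on genes. Celf1 itself was reduced in Celf1cKO lenses by a log2 fold-change of -1.60 ± 0.33 (SE), with an adjusted p of 0.0269, although its gene-level value includes exons outside the deleted one. Celf1cKO 1 kept more of it, at 8.93 log2 CPM, than Celf1cKO 2 and 3, at 7.66 and 7.83, and with 1 library left out Celf1 passed only without Celf1cKO 1 (-1.99, adjusted p = 0.0025). Of 12 lens fiber markers 11 were in the table, at a summed level of 31449 to 39831 CPM in Control and 24474 to 26666 CPM in Celf1cKO libraries, and all 10 lens epithelial markers were in it. Of 10 cornea and skin markers 1 was present. The libraries differed in sex chromosome transcripts, a property that the labels do not give. Control 1 and Control 2 held reads of the Y-linked genes Uty, Kdm5d, Eif2s3y and Ddx3y, with Eif2s3y at 5.67 and 5.80 log2 CPM. Control 3 and the 3 Celf1cKO libraries had Eif2s3y at -3.42 log2 CPM or less and Xist between 8.22 and 9.88 log2 CPM. A difference of genotype and one of sex therefore cannot be told apart between Control 1 or 2 and the Celf1cKO libraries, and each main result is also given against Control 3, the 1 Control library without Y-linked expression. In that comparison, which fits Y-linked expression as a term and takes the lone Control library to vary like the others, 17 of 13931 genes passed. In bulk tissue, fewer cells of a type and less RNA per cell cannot be told apart. Control 3 also differed from Control 1 and 2 in more than sex chromosome transcripts. Its 4 retina markers summed to 20.5 CPM, against 10.3 and 7.72 CPM. The fiber marker Bfsp2 stood at 8.59 log2 CPM, against 11.33 and 11.56 log2 CPM. Its 10 lens epithelial markers, at 861 CPM, lay near theirs, at 868 and 914 CPM. A value against Control 3 also carries such differences, and their part in it was not tested.

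The decay machinery was expressed throughout and mostly differed little between the groups. Of the 55 genes, 6 passed the test, which is an adjusted p under 0.05 in limma with Benjamini-Hochberg adjustment over all 13931 genes. That is 10.9% of the decay genes, beside 11.9% of all genes in the table and 14.5% of the 10529 genes with a mean log2 CPM above 1, as all decay genes had. The deadenylases Cnot6, Cnot6l and Parn and the exosome subunit Exosc9 were elevated in Celf1cKO lenses, and the nonsense-mediated decay factor Upf3b and the poly(A)-binding protein Pabpc1 were reduced. The 4 elevated genes stand beside 7.85% of all genes passing upward, and the 2 reduced genes beside 4.03% passing downward. The median log2 fold-change of the 55 genes was -0.04, beside -0.04 for all genes and 0.0060 for the 10529 genes with a mean log2 CPM above 1. Of the 55 genes, 43 lay within 0.3 of 0, beside 6928 of all 13931 genes and 5892 of those 10529. Only Cnot6, Parn and Upf3b also met the study's cut-offs of a log2 fold-change beyond 0.58 and a mean log2 CPM above 1, which 5.45% of the decay genes, 7.25% of all genes and 9.59% of genes above that mean did. The 2 elevated genes of these 3 stand beside 4.69% of all genes and the 1 reduced gene beside 2.56%. The values of the Control and Celf1cKO libraries did not overlap for 18 of the 55 genes, 8 higher and 10 lower in Celf1cKO, beside 36.5% of all genes (19.5% higher, 17% lower) and 40.1% of genes with a mean log2 CPM above 1.

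**Figure D1:**
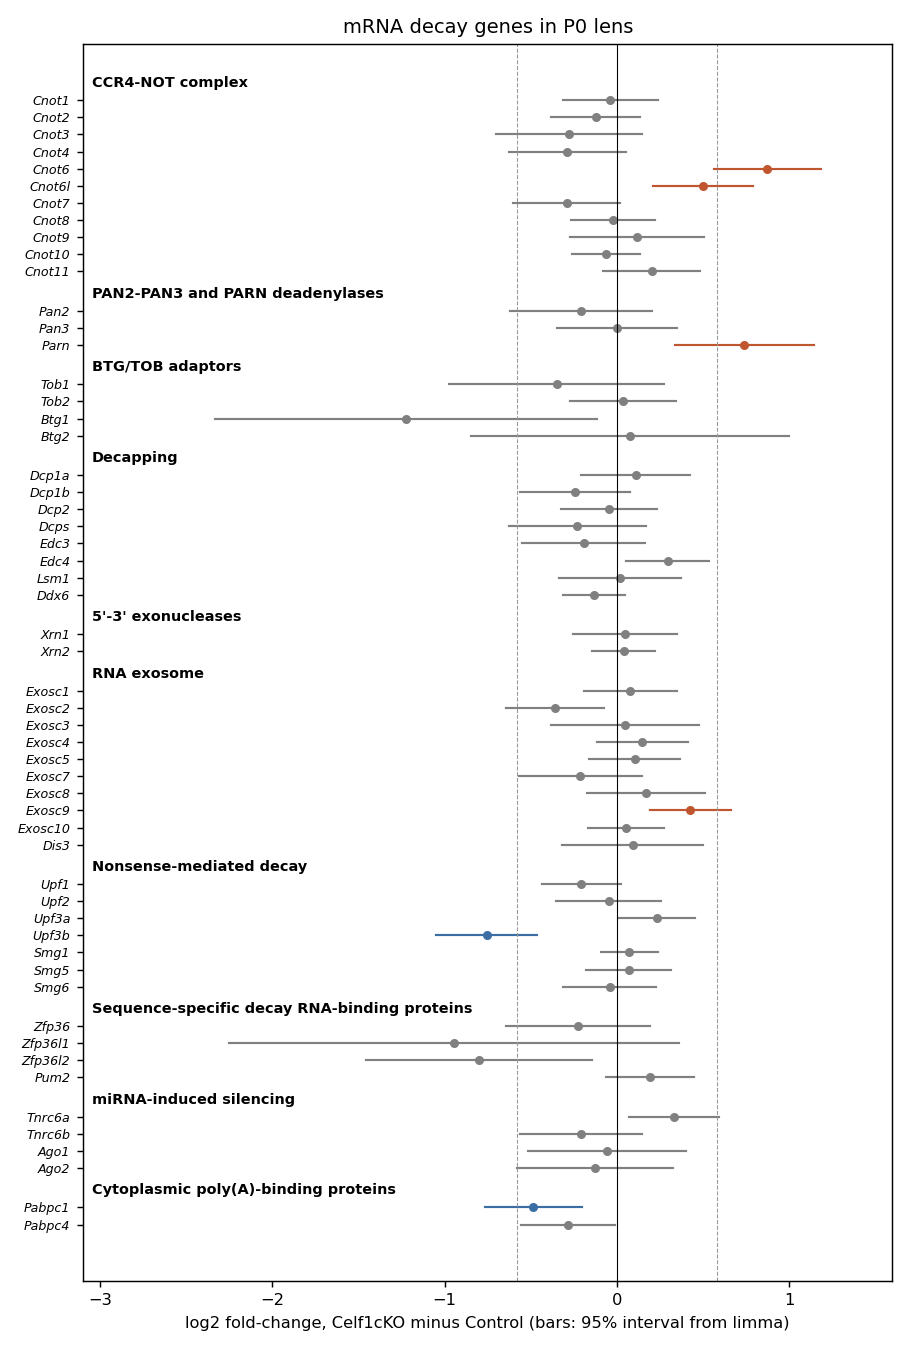
Log2 fold-change of each of the 55 decay genes, Celf1cKO minus Control, grouped by role. Points are limma estimates from 3 libraries per group, bars their 95% intervals, dashed lines mark 0.58 in either direction, and the 4 red and 2 blue genes are those with an adjusted p under 0.05 that were elevated and reduced.

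The mean level of the decay genes over the 6 libraries ran from 2.05 log2 CPM for Zfp36l1 to 10.09 log2 CPM for Pabpc1, and every gene was read at least 60 times in each library. Against Control 3, none of the 55 genes passed, beside 0.122% of all genes, and 13 had an unadjusted p under 0.05 (23.6%, as over all genes). This comparison shares Control 3 and the Celf1cKO libraries with the one over all Control libraries, so its values are given beside the others and not as independent evidence. Scaling by total reads in place of the authors' scaling raised the median log2 fold-change of genes with a mean log2 CPM above 1 from 0.0060 to 0.23, and then 12 decay genes passed as elevated and 1 as reduced, beside 4 and 2 with the authors' scaling. These 13 are 23.6% of the decay genes, beside 23.3% of all genes that passed with that scaling. Crystallin genes took 46.3% ± 0.6 of the reads in Control and 36.3% ± 2.0 in Celf1cKO libraries (SD, n = 3).

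**Figure D2:**
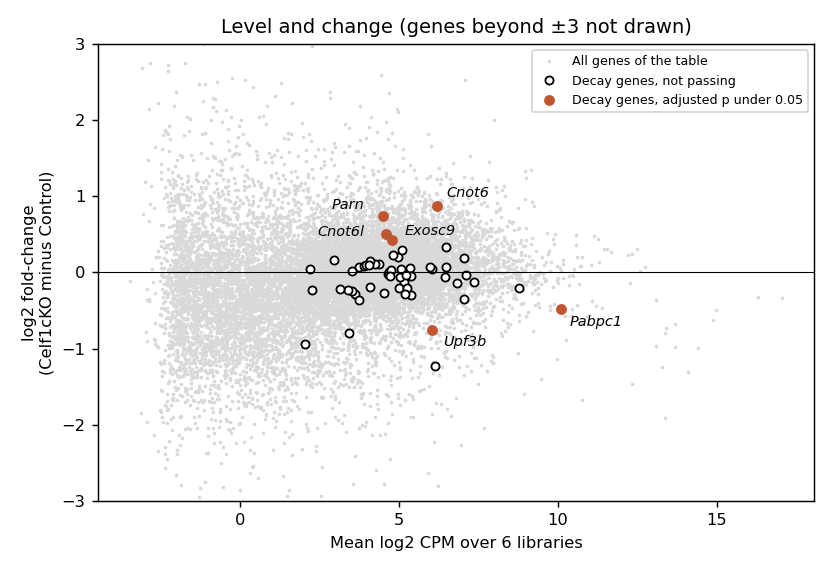
Mean log2 CPM over the 6 libraries (x axis) against log2 fold-change, Celf1cKO minus Control (y axis), for all 13931 genes (grey), the 49 decay genes that did not pass (open) and the 6 that did (red). The decay genes lie above a mean of 2 log2 CPM, and most lie close to 0 change.

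Among the 11 genes of the CCR4-NOT complex, both genes for the CCR4-type nuclease subunit passed as elevated in Celf1cKO lenses and none passed as reduced. These 2 genes are 18.2% of the complex, beside 11.9% of all genes. Cnot6, on chromosome 11 (49671503 to 49712723, minus strand, GRCm38), encodes a CCR4-type subunit, CCR4a. It was measured at 5.87, 5.55 and 5.85 log2 CPM in Control 1, 2 and 3 and 6.43, 6.81 and 6.65 log2 CPM in Celf1cKO 1, 2 and 3. Every Celf1cKO library lay above every Control library. The log2 fold-change was 0.87 ± 0.13 (SE), a 1.83-fold difference, with an adjusted p of 0.0134. Without Control 2 the adjusted p was 0.0554 and without Celf1cKO 3 it was 0.0752, and with any other library left out it stayed under 0.05. Against Control 3 the difference was 0.78 (adjusted p = 0.0959).

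Cnot6l, the paralogue on chromosome 5 (96070333 to 96164171, minus strand), encodes the alternative subunit CCR4b. It stood at 4.30, 4.5 and 4.24 log2 CPM in Control and at 4.70, 5.0 and 4.83 log2 CPM in Celf1cKO libraries. The groups did not overlap, although the lowest Celf1cKO library was only 0.21 above the highest Control library. The log2 fold-change was 0.50 ± 0.12 (SE), with an adjusted p of 0.0428 (0.0828 without the variance trend). With 1 library left out, it passed only without Celf1cKO 1 (adjusted p = 0.0236), and it lay between 0.0756 and 0.151 otherwise. Against Control 3 it was 0.61 (adjusted p = 0.112).

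The CAF1-type nuclease subunits, encoded by Cnot7 and Cnot8, did not pass. Cnot7 stood at 5.64, 5.58 and 5.36 log2 CPM in Control and at 5.47, 5.08 and 5.16 log2 CPM in Celf1cKO libraries, with Celf1cKO 1 inside the Control range (log2 fold-change -0.29, adjusted p = 0.188). It passed without Celf1cKO 1 (log2 fold-change -0.41, adjusted p = 0.0459). Cnot8 ranged from 4.55 to 4.78 log2 CPM in Control and from 4.58 to 4.71 log2 CPM in Celf1cKO libraries. Its log2 fold-change was -0.02, with a 95% interval from -0.26 to 0.22. Cnot4, which encodes a ubiquitin ligase that associates with the complex, stood at 3.66, 3.91 and 3.74 in Control and 3.30, 3.65 and 3.50 log2 CPM in Celf1cKO, 0.0056 below the lowest Control library at its closest (log2 fold-change -0.29, adjusted p = 0.227). The other subunits, the scaffold gene Cnot1 with Cnot2, Cnot3, Cnot9, Cnot10 and Cnot11, had log2 fold-changes from -0.28 (Cnot3) to 0.20 (Cnot11), and none passed. Of these, Cnot10 was lower in every Celf1cKO library than in any Control library, by 0.0023 at its closest (log2 fold-change -0.06).

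Per kilobase of exon, with all annotated exons of a gene counted, the CCR4-type and CAF1-type genes came to lie in another order. The length of the transcripts made in the lens was not measured, and the order of different genes depends on the length used. In Control lenses the level was 9.63 ± 0.75 CPM per kb for Cnot8, 8.21 ± 1.0 for Cnot6, 7.94 ± 0.78 for Cnot7 and 1.97 ± 0.19 for Cnot6l (SD, n = 3). Cnot6 and Cnot7 overlapped across Control libraries, and the lowest Control library of Cnot8, at 8.87, lay next to the highest of Cnot6, at 8.84. In Celf1cKO lenses Cnot6 stood at 15.1 ± 2.0 CPM per kb, above Cnot8 at 9.48 ± 0.43 and Cnot7 at 6.51 ± 0.97, and Cnot6l stood at 2.79 ± 0.29. The summed level of Cnot6 and Cnot6l over that of Cnot7 and Cnot8, a ratio chosen after the values were seen and given without a test, was 0.590, 0.498 and 0.663 in Control and 0.909, 1.28 and 1.18 in Celf1cKO libraries. No Celf1cKO library reached down to the Control range.

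Of the deadenylases outside the CCR4-NOT complex, Parn was elevated. PARN is a poly(A)-specific ribonuclease that also trims the end of telomerase RNA, and its gene lies on chromosome 16 (13537960 to 13668170, minus strand). Parn was at 4.09, 4.22 and 4.03 log2 CPM in Control and at 4.49, 5.13 and 4.95 log2 CPM in Celf1cKO libraries, with Celf1cKO 1 the lowest of its group and still above all Control libraries. The log2 fold-change was 0.74 ± 0.17 (SE), a 1.67-fold difference, with an adjusted p of 0.0357 (0.0755 without the variance trend). It passed only without Celf1cKO 1 (0.92, adjusted p = 0.00472) when 1 library was left out, and ranged from 0.0944 to 0.141 otherwise. The value against Control 3 was 0.83 (adjusted p = 0.135). Per kilobase of exon, Parn went from 3.21 ± 0.22 to 5.46 ± 1.18 CPM per kb (SD, n = 3). Pan2, the nuclease gene of the other complex, had a log2 fold-change of -0.21 and its partner Pan3 one of -0.00078, and neither passed.

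**Figure D3:**
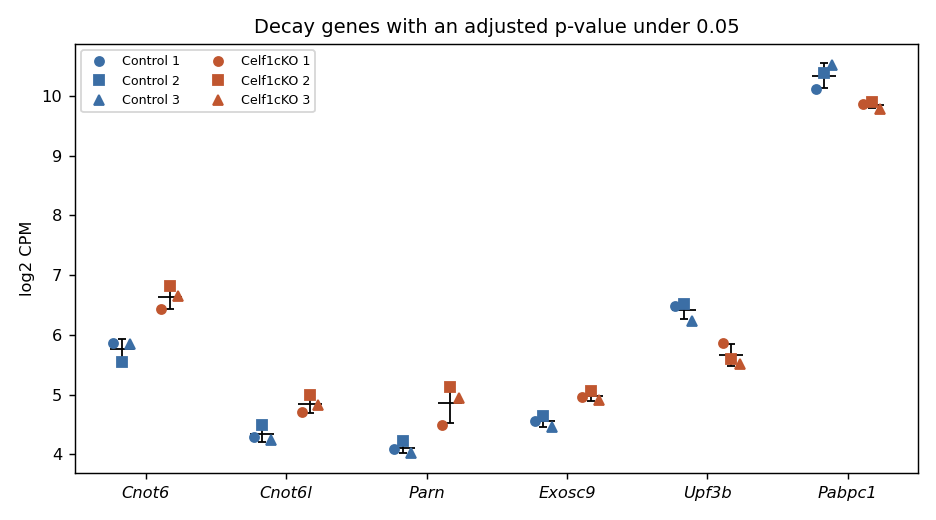
Log2 CPM of the 6 decay genes with an adjusted p under 0.05, with Control libraries in blue, Celf1cKO libraries in red and the replicate number as marker shape. Horizontal lines are means and vertical bars SDs of 3 libraries, and no gene has overlapping groups.

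Of the 2 cytoplasmic poly(A)-binding protein genes, Pabpc1 passed as reduced in Celf1cKO lenses, and Pabpc4 did not pass. PABPC1 coats the poly(A) tail and both stimulates translation and contacts the deadenylase complexes. Its gene on chromosome 15 (36595661 to 36609668, minus strand) was read at 10.11, 10.38 and 10.52 log2 CPM in Control and at 9.87, 9.90 and 9.78 log2 CPM in Celf1cKO libraries. The Celf1cKO libraries lay within 0.12 of one another and below all Control libraries. The log2 fold-change was -0.49 ± 0.12 (SE), and the adjusted p 0.0430. When the replicate number entered as a block the adjusted p was 0.0501, without the variance trend 0.0921, with quantile normalization 0.0655, and with total-read scaling 0.159 at a log2 fold-change of -0.26. It passed without Control 1 (0.0438) or without Celf1cKO 1 (0.0461), and lay between 0.0892 and 0.167 with another library left out. Against Control 3 it was -0.67 (adjusted p = 0.0721). The annotation lists 2 pseudogenes with a name that starts with Pabpc. Only uniquely mapped reads were counted, and whether this left out reads of Pabpc1 was not examined. Pabpc4, the paralogue, was at 5.44, 5.31 and 5.29 log2 CPM in Control and at 5.28, 4.94 and 4.97 log2 CPM in Celf1cKO libraries. Its groups were separated by 0.01 (log2 fold-change -0.28, adjusted p = 0.156), and it passed without Celf1cKO 1 (-0.39, adjusted p = 0.0333) and was at -0.06 with total-read scaling.

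Of 10 exosome genes, 1 passed. EXOSC9 is a subunit of the ring of the exosome core. Exosc9, on chromosome 3 (36552606 to 36565727, plus strand), was at 4.56, 4.64 and 4.46 log2 CPM in Control and at 4.96, 5.07 and 4.91 log2 CPM in Celf1cKO libraries. All Celf1cKO libraries were above all Control libraries, and the log2 fold-change was 0.43 ± 0.10 (SE), with an adjusted p of 0.0380 (0.0762 without the variance trend). With 1 library left out it passed only without Celf1cKO 1 (0.0376) and lay between 0.0836 and 0.140 otherwise, and against Control 3 it was 0.52 (adjusted p = 0.0959). Its annotation overlaps that of the cyclin gene Ccna2 on the other strand, and whether the counting used strand is not given in the sources used here. For Ccna2 the log2 fold-change was -0.64 (adjusted p = 0.179), the opposite sign to Exosc9. The same limit holds for Cnot7, which overlaps Zdhhc2, and for Upf1, which overlaps Cers1 and Gdf1, on the other strand. Edc4 overlaps Nrn1l on its own strand, where strand cannot separate the reads. Exosc2, a cap subunit, stood at 3.89, 3.85 and 3.99 log2 CPM in Control and at 3.69, 3.51 and 3.47 log2 CPM in Celf1cKO libraries, without overlap (log2 fold-change -0.36, adjusted p = 0.0996). The remaining subunits Exosc1, Exosc3, Exosc4, Exosc5, Exosc7 and Exosc8 and the nuclease genes Exosc10 and Dis3 had log2 fold-changes from -0.21 (Exosc7) to 0.17 (Exosc8), and none passed.

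In nonsense-mediated decay, which degrades transcripts with premature stop codons, Upf3b was reduced and 6 of 7 genes did not pass. UPF3B links the exon junction complex to the UPF1 helicase, and its gene is X-linked (37091678 to 37110322, minus strand). Upf3b was at 6.49, 6.52 and 6.24 log2 CPM in Control and at 5.86, 5.59 and 5.51 log2 CPM in Celf1cKO libraries. Control 3 was the lowest of the Control libraries and lay 0.38 above the highest Celf1cKO library. The log2 fold-change was -0.76 ± 0.12 (SE), a fold of 0.592, with an adjusted p of 0.0153 (0.0509 without the variance trend). Upf3b passed without Control 3 (0.0380), Celf1cKO 1 (0.00476) or Celf1cKO 2 (0.0480), and had an adjusted p of 0.0505 without Control 1, 0.0661 without Control 2 and 0.0807 without Celf1cKO 3. Against Control 3 the difference was -0.58 (adjusted p = 0.105). Per kilobase of exon it went from 21.4 ± 2.2 to 12.7 ± 1.7 CPM per kb (SD, n = 3).

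Upf3a, its paralogue, had the opposite sign. It stood at 4.65, 4.79 and 4.67 log2 CPM in Control and at 4.94, 4.87 and 4.98 log2 CPM in Celf1cKO libraries, without overlap. The log2 fold-change was 0.23, with an adjusted p of 0.153, and the level was 4.43 ± 0.24 CPM per kb in Control and 5.19 ± 0.21 CPM per kb in Celf1cKO lenses (SD, n = 3), below Upf3b in both. Upf1, the helicase gene, was at 5.36, 5.38 and 5.35 log2 CPM in Control and at 5.01, 5.17 and 5.29 log2 CPM in Celf1cKO libraries (log2 fold-change -0.21, adjusted p = 0.206). Its Control libraries lay within 0.03 of one another, and the sign turned to 0.02 with total-read scaling. Upf2, the kinase gene Smg1, Smg5 and the endonuclease gene Smg6 had log2 fold-changes from -0.05 to 0.07, and none passed. Smg1 stood at 6.44, 6.46 and 6.44 log2 CPM in Control and at 6.52 log2 CPM in each Celf1cKO library, so its groups were apart at a log2 fold-change of 0.07.

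No decapping gene passed among 8, and the log2 fold-changes lay between -0.24 and 0.30. Edc4, which encodes a scaffold of the decapping complex, stood at 5.01, 4.83 and 5.05 log2 CPM in Control and at 5.15, 5.30 and 5.32 log2 CPM in Celf1cKO libraries (log2 fold-change 0.30, adjusted p = 0.105). Dcp1b, a cofactor of the decapping enzyme, was at 3.59, 3.63 and 3.71 log2 CPM in Control and at 3.57, 3.39 and 3.23 log2 CPM in Celf1cKO libraries (log2 fold-change -0.24, adjusted p = 0.270). The groups were apart for both genes, by 0.10 for Edc4 and by 0.01 for Dcp1b. Dcp1a, the paralogue of Dcp1b, was at 4.29, 4.20 and 4.07 log2 CPM in Control and at 4.5, 4.12 and 4.27 log2 CPM in Celf1cKO libraries, which overlapped (log2 fold-change 0.11, adjusted p = 0.628). Ddx6, a P-body helicase gene, was at 6.87, 6.96 and 6.82 in Control and at 6.79, 6.69 and 6.76 log2 CPM in Celf1cKO libraries (log2 fold-change -0.13, adjusted p = 0.280), and turned to 0.09 with total-read scaling. Dcp2, the catalytic gene, had a log2 fold-change of -0.04 with a 95% interval from -0.32 to 0.24. Dcps, Edc3 and Lsm1 lay between -0.23 (Dcps) and 0.02 (Lsm1).

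The 5′-3′ exonuclease genes were near 0 change. Xrn1 encodes the enzyme that acts after decapping in the cytoplasm, and Xrn2 encodes a nuclear one. Xrn1 ranged from 5.01 to 5.10 log2 CPM in Control and from 4.90 to 5.36 log2 CPM in Celf1cKO libraries (log2 fold-change 0.05, 95% interval -0.26 to 0.35). Xrn2 ranged from 5.99 to 6.10 log2 CPM in Control and from 6.04 to 6.09 log2 CPM in Celf1cKO libraries (log2 fold-change 0.04, 95% interval -0.14 to 0.22). The Celf1cKO libraries of Xrn2 lay inside the Control range, and those of Xrn1 on both sides of it. Both signs turned with quantile normalization, to -0.01 for Xrn1 and -0.04 for Xrn2, whereas with total-read scaling Xrn2 was at 0.27 and passed (adjusted p = 0.0410).

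The 4 genes with an SD above 0.5 log2 CPM in Celf1cKO libraries were Btg1, Btg2, Tob1 and Zfp36l1. They are 7.27% of the 55, beside 9.82% of genes with a mean log2 CPM above 1. In Control libraries 2 of the 55 had such an SD, Btg2 at 0.54 and Zfp36l1 at 0.62, beside 607 of the 10529 genes. BTG and TOB proteins are antiproliferative adaptors that bind the CAF1 nuclease. Btg1 stood at 6.69, 6.79 and 6.76 log2 CPM in Control and at 6.70, 4.52 and 5.32 log2 CPM in Celf1cKO libraries. Celf1cKO 1 was at the Control level, while Celf1cKO 2 and Celf1cKO 3 were lower than any Control library. The log2 fold-change of -1.23 ± 0.47 (SE) lay farthest from 0 among the 55 genes and did not pass (adjusted p = 0.134). Without Celf1cKO 1 it was -1.82 (adjusted p = 0.00386), and without Celf1cKO 2 it was -0.73 (adjusted p = 0.271). Btg2 was at 3.16, 4.24 and 3.68 log2 CPM in Control and at 3.04, 4.47 and 3.8 log2 CPM in Celf1cKO libraries, with number 1 lowest and number 2 highest in both groups (log2 fold-change 0.08, adjusted p = 0.916). Tob1 and Tob2 had log2 fold-changes of -0.35 and 0.04, with Tob1 between 6.32 and 7.36 log2 CPM within Celf1cKO libraries.

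ZFP36 proteins, of which tristetraprolin is the founding member, bind AU-rich elements and recruit the CCR4-NOT complex. Zfp36l2 stood at 3.34, 4.04 and 4.10 log2 CPM in Control and at 3.29, 2.53 and 3.25 log2 CPM in Celf1cKO libraries, without overlap but with Celf1cKO 1 only 0.05 below Control 1 (log2 fold-change -0.80, adjusted p = 0.105). Zfp36l1 was at 2.73, 1.83 and 3.02 log2 CPM in Control and at 2.47, 0.36 and 1.90 log2 CPM in Celf1cKO libraries, which overlapped (log2 fold-change -0.95, adjusted p = 0.292). Without Celf1cKO 2, Zfp36l1 was at -0.34 and Zfp36l2 at -0.56. Zfp36 was at 2.30, 2.33 and 2.55 log2 CPM in Control and at 2.01, 2.35 and 2.14 log2 CPM in Celf1cKO libraries (log2 fold-change -0.23, adjusted p = 0.432). Pum2, a Pumilio protein gene, was at 6.86, 7.14 and 6.82 log2 CPM in Control and at 7.02, 7.21 and 7.17 log2 CPM in Celf1cKO libraries (log2 fold-change 0.19, adjusted p = 0.277). None of these 4 genes passed.

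Marker genes of the vascular endothelium and the lens epithelium moved across the same libraries. The 6 vascular endothelial markers summed to 91.2 to 113 CPM in Control libraries and to 109, 22.2 and 52.6 CPM in Celf1cKO 1, 2 and 3, and all 6 had a log2 fold-change below 0, none of them passing. The 10 lens epithelial markers summed to 861 to 914 CPM in Control and to 784, 361 and 563 CPM in Celf1cKO libraries. All 10 were below 0 and 2 passed (20%, beside 11.9% of all genes). Celf1cKO 2 was the lowest library for both lists and for Btg1, Zfp36l1 and Zfp36l2. The part of these cell types in the values of the 3 genes was not tested. Of the gene groups known to be regulated together with Btg2 and Zfp36, 12 of 14 listed immediate early genes were in the table. Of these, 2 passed upward and none downward (16.7%). Of 12 p53 target genes, 8 passed upward and 1 downward (75%). Over all genes, 7.85% passed upward and 4.03% downward (11.9%).

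**Figure D4:**
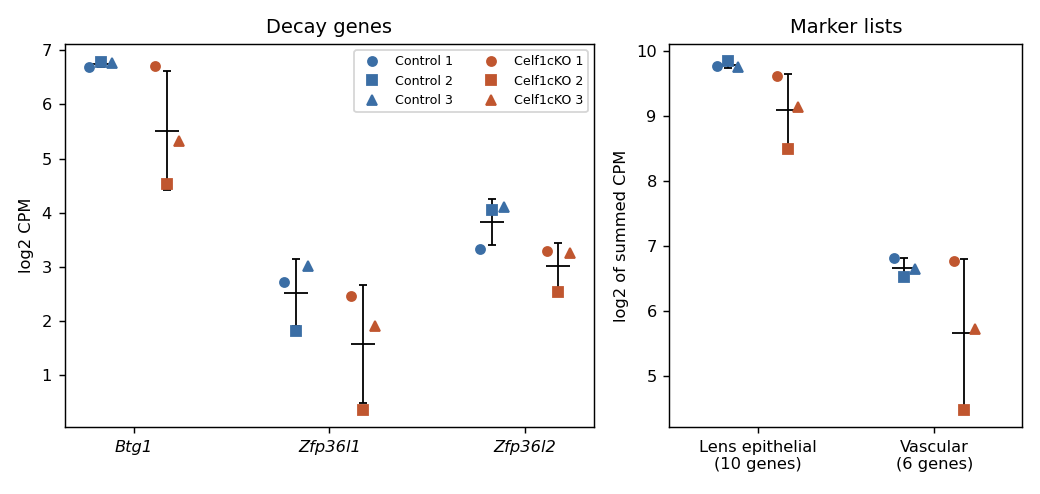
Left, log2 CPM of Btg1, Zfp36l1 and Zfp36l2 in each library. Right, log2 of the summed CPM of 10 lens epithelial and 6 vascular endothelial markers in the same libraries, where Celf1cKO 2 is the lowest library in both panels. Lines are means and bars SDs of 3 libraries.

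Of the genes of miRNA-induced silencing, in which Argonaute proteins recruit deadenylases through TNRC6 scaffolds, none of 4 passed. Tnrc6a was at 6.36, 6.45 and 6.16 log2 CPM in Control and at 6.50, 6.77 and 6.69 log2 CPM in Celf1cKO libraries, which lay above all Control libraries (log2 fold-change 0.33, adjusted p = 0.0955). It passed without Celf1cKO 1 (0.41, adjusted p = 0.0409). Tnrc6b was at 8.71, 9.21 and 8.72 log2 CPM in Control and at 8.52, 8.80 and 8.70 log2 CPM in Celf1cKO libraries (log2 fold-change -0.21, adjusted p = 0.392), and turned to 0.02 with total-read scaling. Ago1 had a log2 fold-change of -0.06. Ago2 was at 7.68, 7.66 and 6.93 log2 CPM in Control and at 7.28, 7.34 and 7.27 log2 CPM in Celf1cKO libraries, all of which lay above Control 3 and below Control 1 and Control 2. Its log2 fold-change was -0.13 (adjusted p = 0.699) over all libraries and 0.37 against Control 3 (adjusted p = 0.0946), the opposite sign.

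A ratio of 2 paralogues within a library does not depend on how the library was scaled, and 12 such pairs were compared. The groups did not overlap for 4 of the 12 pairs, Cnot6/Cnot6l, Dcp1a/Dcp1b, Upf3a/Upf3b and Tnrc6a/Tnrc6b. Among single genes, 36.5% of the whole table had groups that did not overlap, and a share over other gene pairs was not computed. The log2 ratio of Upf3a to Upf3b was -1.84, -1.73 and -1.57 in Control and -0.93, -0.72 and -0.53 in Celf1cKO libraries, a difference of 0.99. Against Control 3 it differed by 0.85, Tnrc6a/Tnrc6b by 0.55, Dcp1a/Dcp1b by 0.54 and Cnot6/Cnot6l by 0.17. Without Control 2 the Cnot6/Cnot6l difference was 0.19, beside 0.37 with all libraries. The ratio of Tnrc6a to Tnrc6b went from -2.56 ± 0.20 to -2.02 ± 0.01, that of Cnot6 to Cnot6l from 1.41 ± 0.32 to 1.79 ± 0.05, and that of Dcp1a to Dcp1b from 0.55 ± 0.18 to 0.90 ± 0.16 (SD, n = 3, log2). Each of the 4 had p = 0.1 in an exact two-sided permutation test, the smallest that 3 libraries against 3 allow, and 0.3 after Benjamini-Hochberg adjustment over the 12 pairs. With libraries paired by replicate number, the exact two-sided p was 0.25 for each, again the smallest possible. The other 8 pairs overlapped, from a difference of -1.30 for Btg1/Btg2 to 0.72 for Zfp36/Zfp36l1. With 1 library left out, Btg1/Btg2 ranged from -2.26 (without Celf1cKO 1) to -0.46 (without Celf1cKO 2) and Zfp36/Zfp36l1 from 0.019 (without Celf1cKO 2) to 1.25 (without Celf1cKO 1).

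**Figure D5:**
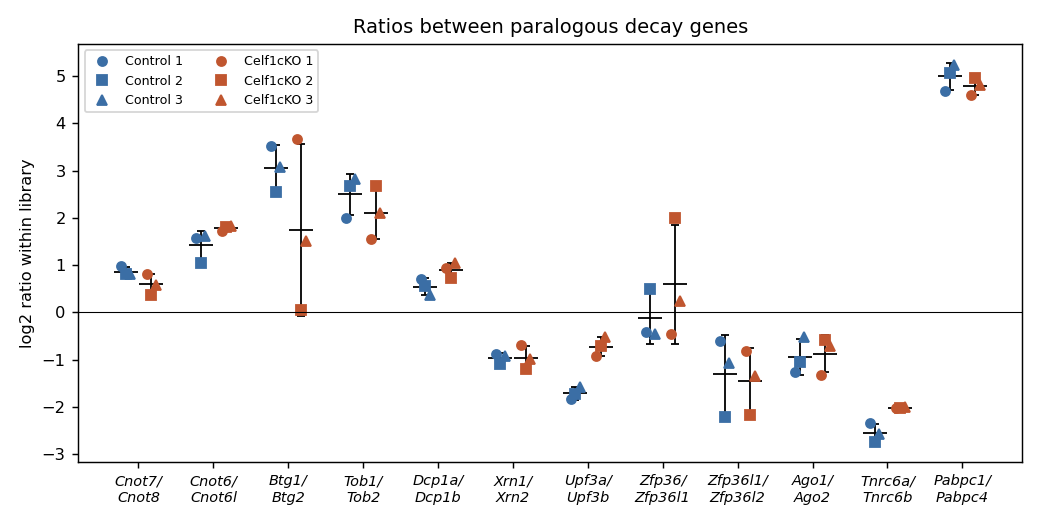
Log2 ratio of the 2 genes of each paralogue pair within each library (y axis) for 12 pairs, Control in blue and Celf1cKO in red, with means and SDs of 3 libraries. The groups are apart for 4 pairs, with Upf3a/Upf3b the widest difference among them at 0.99.

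CELF1 is known to bind GU-rich elements. The annotated 3′ UTRs were therefore searched on the transcript strand for such an element, the run printed in capitals in the sites below. The longest annotated 3′ UTR held it in 3 of 55 decay genes (5.45%), Cnot6l, Upf1 and Dcp2, beside 561 of 13095 genes (4.28%). The sites of Cnot6l and Upf1 are shown 5′ to 3′ on the transcript strand (GRCm38, GENCODE M21) with the element in capitals, since Cnot6l is the only passing gene that holds one.
Cnot6l, chr5:96076095-96076119, minus strand, 1068 bases after the stop codon: aaatggcTGTTTGTTTGTtgttttg
Upf1, chr8:70331961-70331985, minus strand, 505 bases after the stop codon: tttttttTGTTTGTTTGTttggttt
The 3 genes had log2 fold-changes of 0.50 (Cnot6l), -0.21 (Upf1) and -0.04 (Dcp2), with a median of -0.04, and the 52 genes without the element had a median of -0.03. Over all genes the median was 0.10 with and -0.03 without it, and UTRs with the element were longer, at a median of 3003 against 1141 bases. The AU-rich element, overlapping ATTTA pentamers with a T on either side, was in none of the 55 and in 275 of 13095 genes (2.10%). A match is a run of letters in an annotated UTR and not a measured binding site.

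Decay factors outside the list of 55 were read from a second list of 76 genes, of which 73 were in the table. In it 7 genes passed upward and 2 downward, 12.3% beside 11.9% of all genes, and 3 met all cut-offs (4.11%, beside 7.25%). Lsm7, a subunit of the Lsm ring that binds deadenylated ends and of the spliceosomal ring, stood at 3.74, 3.71 and 3.52 log2 CPM in Control and at 4.46, 4.73 and 4.72 log2 CPM in Celf1cKO libraries. Its log2 fold-change was 0.98 ± 0.13 (SE), a 1.97-fold difference (adjusted p = 0.0101), and it failed only without Control 2 (0.0512) or Celf1cKO 3 (0.0711) when 1 library was left out. Lsm1, its partner in the cytoplasmic ring, stood at a log2 fold-change of 0.02 with a 95% interval from -0.34 to 0.37. Larp1, a poly(A)- and cap-binding protein gene, was at 6.89, 7.03 and 6.81 in Control and 7.27, 7.70 and 7.59 log2 CPM in Celf1cKO libraries (log2 fold-change 0.61, adjusted p = 0.0265), and passed only without Celf1cKO 1 (0.00481) when 1 library was left out, with 0.0698 to 0.116 otherwise. Tut1, a terminal uridylyltransferase gene, was at 4.52, 4.71 and 4.58 in Control and 4.04, 3.90 and 3.94 log2 CPM in Celf1cKO libraries (log2 fold-change -0.64, adjusted p = 0.0160), and did not pass without Control 2 (0.0664), Celf1cKO 2 (0.0558) or Celf1cKO 3 (0.0895). Against Control 3 the log2 fold-changes were 1.11 for Lsm7, 0.70 for Larp1 and -0.62 for Tut1, none with an adjusted p under 0.05. Further genes that passed, named after their values were seen, included Paip2 (0.55), Larp4b (0.52), Lsm14a (0.40) and Smg8 (0.52) upward and Hbs1l (-0.45) downward.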

How the data were processed

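RNA of pooled P0 mouse lenses was sequenced from strand-specific, paired-end libraries. After trimming, the authors aligned reads to GRCm38.p6 with STAR 2.7.8a, counted uniquely mapped reads per gene with featureCounts 2.0.0, scaled the libraries with edgeR and deposited log2 CPM values with a small prior count for 13931 genes. The deposited table also holds the authors' log2 fold-changes, mean log2 CPM, F score, p-values and FDR, none of which were used. Samples were grouped by their labels.

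The decay genes, the other lists and the pairs were chosen with earlier results of these data known. Log2 CPM was tested with limma 3.58.1 in R 4.3.3 (empirical Bayes, variance trend, group only), with Benjamini-Hochberg adjustment over all genes, and the procedure was checked on simulated data. SDs are over 3 libraries. Described gene by gene were the genes that passed, further genes by unadjusted p up to 20, the gene farthest from 0 in each role and their pair partners, 27 in all. Smg1 and Ago2 lie outside this rule and are also given library by library. Read numbers were recovered from the steps of the values, 100% of which were whole within 0.01, and replicates of a group differed by far more than sampling noise. The steps show that 3 reads correspond to 0.0609 to 0.0807 CPM.

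Same-numbered Control and Celf1cKO libraries deviated together from their group means (r = 0.33, 0.42 and 0.33 over 10529 genes; -0.35 to 0.02 between different numbers), so the numbers, shared through the labels, were taken to pair the libraries, although no source describes a pairing. Values with the pairing as a block are given where they change a call. Alternatives were robust empirical Bayes, a replicate block, a fit without variance trend, log2(CPM + 1), other scalings, voom on recovered reads, expressed genes only and each library left out. Y-linked expression as a term was added after the data were seen. GENCODE M21 (GRCm38), which holds 13928 of the gene identifiers, gave positions, exon lengths and UTRs. Plots used Python 3.11.15 and matplotlib 3.10.9.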

Additional observations from a re-analysis of the deposited data

How the results depend on the processing

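With 3 libraries per group and sex of the pool partly shared with genotype, no call among the decay genes held under every choice. The count of 6 passing decay genes (4 higher, 2 lower) was 1 without the variance trend (1 higher, 0 lower) and 13 with total-read scaling (12 higher, 1 lower). It was 5 with the replicate block or quantile normalization, where 1 passed as lower. These 5 are 9.09% of the decay genes, beside 15.2% of all genes with the block and 13% with quantile normalization. Over the whole table the share that passed moved as well, from 11.9% to 3.85% without the trend, 23.3% with total-read scaling and 0.122% with the Y-linked term. With Y-linked expression as a term it was 0, also in each direction, and 0 genes met all cut-offs. With 1 library left out it ranged from 0 to 10 (0 without Control 2 or Celf1cKO 3, where 1 gene of the whole table passed, 10 without Celf1cKO 1, where 21.8% of all genes passed, and 2 without any other library, where 3.5% to 4.97% did), with 0 to 5 higher and 0 to 5 lower. The 3 genes that met all cut-offs were 1 without the trend and 0 to 4 with a library left out. The 9 other decay genes that passed were 2 without the trend, 21 with total-read scaling, 0 with the Y-linked term and 0 to 16 with a library left out. The block changed no call among the 55 genes other than Pabpc1. Of the other decay genes it added N4bp1 (adjusted p = 0.0392) and Rc3h2 (0.0459), for 11 in all, beside 15.2% of all genes. Celf1 (-1.60) had an adjusted p of 0.0693 without the trend and was -1.20 (adjusted p = 0.20) with the Y-linked term and -1.99 to -1.36 with a library left out.

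Total-read scaling adds about the same amount to every gene and turned the sign of 17 of the 55 genes, the Y-linked term and quantile normalization that of 5 each, and leaving out a library that of 1 to 7. With total-read scaling Upf1 was 0.020, Ddx6 0.092, Cnot8 0.21, Zfp36 0.00068 and Tnrc6b 0.018. Quantile normalization gave Xrn1 -0.012 and Xrn2 -0.039, and the Y-linked term gave Cnot8 0.095, Cnot9 -0.13, Smg6 0.16, Ago1 0.0072 and Ago2 0.37. Xrn1 was -0.080 to 0.15, Cnot8 -0.079 to 0.034 (0.014 without Celf1cKO 3) and Btg2 -0.27 to 0.44 (-0.19 without Control 1) with a library left out. The log2 ratio Zfp36l1/Zfp36l2 was 0.0083 on the log2(CPM + 1) scale and -0.60 to 0.22 with a library left out, Xrn1/Xrn2 -0.13 to 0.12 and Ago1/Ago2 -0.088 to 0.30. With the Y-linked term Xrn1/Xrn2 was -0.026 and Ago1/Ago2 -0.36. The cause was not tested.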
